A study of Mus musculus with 2 samples.

Results

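Kinesin motor genes were read out in single mouse fibroblasts sorted by a circadian reporter. The members were all genes whose mouse symbol is Kif followed by a digit and that had at least 1 count, with pseudogenes left out. This gave 37 of the 33757 features counted, and 1 pseudogene was left out. They fell into 9 mitotic kinesins (Kif11, Kif15, Kif18b, Kif20a, Kif20b, Kif22, Kif23, Kif2c and Kif4), 12 transport kinesins (Kif1b, Kif1c, Kif3a, Kif3b, Kif3c, Kif5a, Kif5b, Kif5c, Kif13a, Kif13b, Kif16b and Kif17) and 14 other motors. The last 2 matches are not motors: Kif1bp encodes a kinesin-binding protein and Kif16bos is an RNA antisense to Kif16b. Kinesins named otherwise, such as Cenpe and Kifc1, were outside the rule.

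The cells were NIH3T3-Rev-VNP1-H2B-iRFP, an unsynchronized derivative of NIH3T3, an immortalized mouse embryonic fibroblast line. They carry a Venus reporter of Nr1d1, a repressor in the circadian clock, and histone H2B joined to the near-infrared protein iRFP, were grown almost to confluence, and received no treatment. Single cells were sorted into 2 plates of 384 wells and profiled with FLASH-seq, which reads RNA from single cells over the full length of transcripts. On each plate 4 Venus gates, here bins 1 (dim) to 4 (bright), held 96 cells each. The sort record names plate 1 a high and plate 2 a low H2B-iRFP sort, so plate and iRFP sort cannot be told apart, and each plate is 1 sample. The labels of both plates instead name 2 iRFP bins, so it is not settled that comparing the plates compares iRFP levels. Nothing in the labels says that the plates came from separate cultures, or that the line is 1 clone, so p-values measure the spread between these sums of cells only.

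Kinesins are motor proteins that use ATP to move along microtubules or to take them apart. In dividing cells one set builds the spindle, moves chromosomes and cuts the daughter cells apart, and its genes are known to be transcribed mainly in G2 and mitosis. Another set carries vesicles, organelles and ciliary cargo at any stage of the cycle, as dimers of heavy chains that often bind light chains or adaptors.

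Of the 768 cells, 762 passed the filters, 383 on plate 1 and 379 on plate 2, with 151173 to 1618022 counts per cell. Counts were summed per plate and Venus bin into 8 sums of 76042157 to 86612194 counts and are given as CPM, the count divided by the sum's total in units of 1000000. The row for the reporter transcript (ENSMUS_YFP) rose by 1.63 ± 0.02 (SE) on the log2 scale per bin. Summed CPM of 8 fibroblast markers was 19520 to 25980, against 3.38 to 7.74 for 4 epithelial and 7.21 to 14.0 for 3 leukocyte markers. A linear trend over the 4 bins and any difference among them were tested on the 8 sums with edgeR's quasi-likelihood test, plate being a term in the model. Of the 18430 genes that passed the filter on low counts, 2843 changed with a trend (15.4%) at an adjusted p under 0.05, 1250 higher (6.78%) and 1593 lower (8.64%) toward bright Venus. Any difference was called for 1542 genes (8.37%). The calls with a trend were higher in 43.97% of cases, and in 57.76% when sums were scaled by their totals alone. Of the 37 members 29 passed this filter: 9 mitotic, 11 transport, 8 other motors and Kif1bp.

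The promoters of these genes are shown because the mitotic members moved together while the transport members did not. RefSeq windows on GRCm38.p6, from 250 bases before to 50 after the annotated start, matched 8 of 9 mitotic, 9 of 12 transport and 11 of 14 other members. No window was matched for Kif20a, for the transport members Kif5b, Kif13b and Kif5a, or for Kif28, Kif19a and Kif21b. The windows were searched on both strands for TTTGAA, the core letters of the cell cycle genes homology region, for its variant TTCGAA, and for CCAAT, the core of the NF-Y box. The motifs do not overlap in the stretches printed, and capitals mark each of them. Each stretch is the 100 bases before the start, on the gene's own strand, so that TTCAAA and ATTGG are TTTGAA and CCAAT read from the other strand. Kif11 lies on the plus strand at chr19:37376282-37376381, Kif15 on the plus strand at chr9:122950981-122951080, Kif22 on the minus strand at chr7:127042421-127042520 and Kif18b on the minus strand at chr11:102925125-102925224. The transport genes Kif1c (plus strand, chr11:70700448-70700547) and Kif3a (plus strand, chr11:53567269-53567368) are given for contrast.
Kif11: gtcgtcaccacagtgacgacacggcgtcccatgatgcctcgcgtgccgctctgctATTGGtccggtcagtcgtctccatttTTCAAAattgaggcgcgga
Kif15: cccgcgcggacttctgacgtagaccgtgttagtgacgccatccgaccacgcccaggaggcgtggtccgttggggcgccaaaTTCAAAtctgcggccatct
Kif22: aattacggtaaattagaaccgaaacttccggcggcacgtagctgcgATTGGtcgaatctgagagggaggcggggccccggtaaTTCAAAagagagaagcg
Kif18b: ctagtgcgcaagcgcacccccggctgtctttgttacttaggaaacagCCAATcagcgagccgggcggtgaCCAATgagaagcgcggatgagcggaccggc
Kif1c: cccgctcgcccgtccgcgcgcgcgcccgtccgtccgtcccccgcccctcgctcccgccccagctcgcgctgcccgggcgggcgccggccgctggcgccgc
Kif3a: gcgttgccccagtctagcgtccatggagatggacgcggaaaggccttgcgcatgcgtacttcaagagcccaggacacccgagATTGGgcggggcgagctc

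In the 250 bases before the start, TTTGAA was present in 4 of 8 mitotic members (Kif11, Kif15, Kif22 and Kif2c), 0 of 9 transport members and 3 of 11 other members, against 16% of all 32851 windows. Over the whole window of 300 bases, a search added after the hits were seen, it was present in 8 of 8 mitotic and again 0 of 9 transport members, against 17.9% of all windows. With the annotated start as position 0, it began at position -19 in Kif11 and Kif15 and at -17 in Kif22. It began at position 2 in Kif23, 3 in Kif18b, 7 and 13 in Kif20b and 19 in Kif4. Within 30 bases on either side of the start, a range also chosen after the hits were seen, 7 of 8 mitotic members held it, Kif2c being the exception, against 0 of 9 transport members, 1 of 11 others and 2.9% of all windows. CCAAT before the start was found in 5 of 8 mitotic, 3 of 9 transport and 5 of 11 other members, against 33.8% of all windows. TTCGAA was in 0 of 8 mitotic and 0 of 9 transport members, in 1 of 11 other members (Kif24) and in 1.34% of all windows. A gene with several windows was counted if any of them held the motif, while the share of all windows is per window. A match is a run of letters and not a measured binding site.

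Levels between genes were compared per kilobase of exon, as TPM, a CPM corrected for exon length, averaged over the 8 sums. Kif5b, the ubiquitous heavy chain of kinesin-1, led the motors at 45.1 TPM, followed by Kif1c, a kinesin-3 vesicle motor, at 41.7, and Kif3a, a kinesin-2 subunit of intraflagellar transport, at 36.7. Kif2a, a microtubule depolymerase, stood at 20.6 TPM. Kif20a, a motor of the central spindle and cytokinesis, was the most abundant mitotic member at 17.5 TPM. Kif21a, which restrains microtubule growth, stood at 16.8 TPM. The other mitotic members ran from 8.91 TPM for Kif2c down to 0.773 TPM for Kif15. Kif17, Kif16bos and the other motors Kif19a, Kif21b, Kif26a, Kif26b, Kif27 and Kif28 had 1 to 24 counts in all cells and were not tested.

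The spindle motors were followed first. Kif11, the plus-end motor that pushes spindle poles apart, measured 7.36, 14.1, 13.2 and 21.1 CPM in bins 1 to 4 of plate 1 and 14.4, 26.1, 9.55 and 19.0 CPM in bins 1 to 4 of plate 2. Kif15, which shares this task, measured 1.99, 2.01, 2.56 and 4.12 CPM on plate 1 and 3.63, 3.49, 2.71 and 5.62 CPM on plate 2. Both genes were highest in bin 4 on plate 1 and lowest in bin 3 on plate 2, and the plates' ranges overlapped. Kif2c, a depolymerase that corrects faulty kinetochore attachments, measured 7.32, 9.27, 9.50 and 16.4 CPM on plate 1 and 28.3, 17.6, 8.49 and 22.2 CPM on plate 2. Kif18b, which shortens astral microtubules, measured 3.18, 4.70, 4.20 and 7.63 CPM on plate 1 and 5.31, 7.77, 3.04 and 7.44 CPM on plate 2. In bins 1 and 2 every one of these motors was higher on plate 2.

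The chromosome arm motors followed the same course. Kif22, a chromokinesin that pushes arms away from the poles, measured 9.01, 13.9, 13.3 and 18.3 CPM on plate 1 and 14.9, 21.3, 8.90 and 17.2 CPM on plate 2. Kif4, a chromokinesin that also organises the central spindle, measured 3.71, 4.06, 4.92 and 7.09 CPM on plate 1 and 7.13, 10.2, 3.48 and 9.81 CPM on plate 2. Both were above their plate 1 level in bins 1 and 2 of plate 2 and below it in bin 3.

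The motors of cytokinesis were read next. Kif20a measured 19.7, 15.7, 15.7 and 39.5 CPM on plate 1 and 52.3, 27.6, 17.8 and 44.9 CPM on plate 2. Kif23, the motor subunit of centralspindlin, measured 7.47, 10.7, 7.45 and 13.9 CPM on plate 1 and 16.3, 16.9, 6.78 and 16.7 CPM on plate 2. Kif20b, which acts late in cytokinesis, measured 11.9, 11.98, 10.8 and 21.2 CPM on plate 1 and 13.1, 19.3, 7.68 and 12.4 CPM on plate 2. Kif20a was at its top in bin 1 of plate 2, whereas Kif20b was at its top in bin 4 of plate 1. Kif20a shares exon sequence with Cdc23 on the other strand, as Kif4 does with Pdzd11 and Kif22 with a noncoding RNA. Whether counting used strand was not given in the sources used here, so reads of such pairs cannot be told apart.

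**Figure D1:**
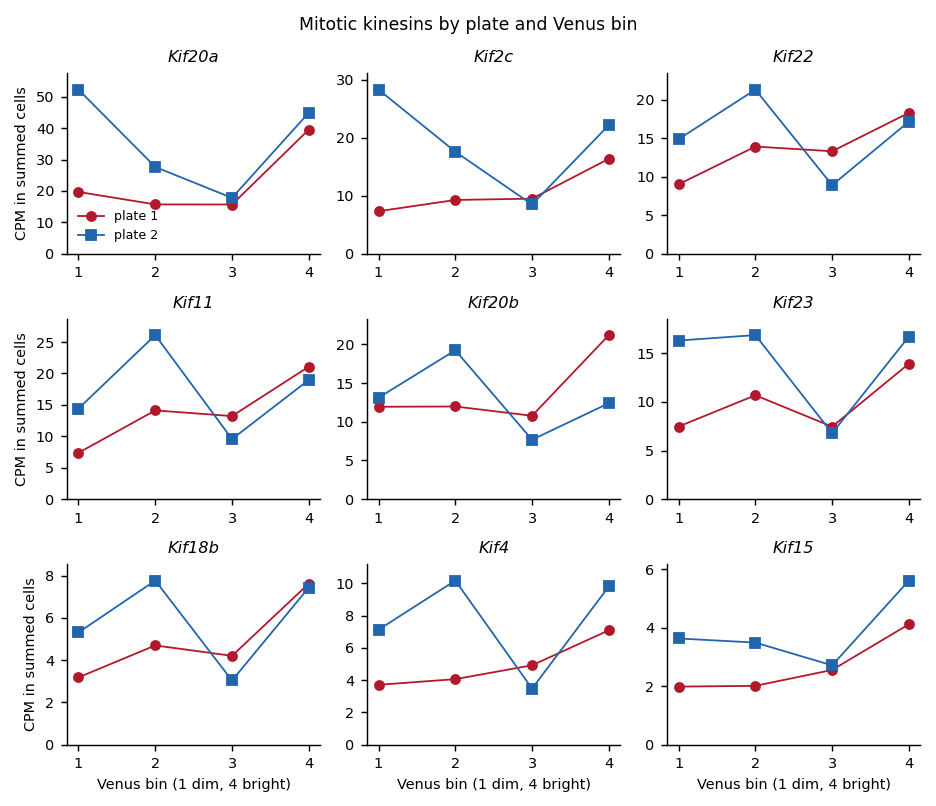
CPM of the 9 mitotic kinesins (vertical axis, 1 panel per gene, from 0) in the 4 Venus bins (horizontal axis), 1 point per sum of cells, red circles for plate 1 and blue squares for plate 2. All 9 genes are highest in bin 4 on plate 1 and lowest in bin 3 on plate 2.

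No mitotic kinesin was called over the bins in either test at an adjusted p under 0.05. By edgeR's quasi-likelihood test with Benjamini-Hochberg adjustment, 0 of 9 had a trend, against 15.4% of all genes, and 0 of 9 any difference, against 8.37%. At an unadjusted p under 0.05, 1 of 9 had a trend and 5 of 9 any difference, where all genes gave 29.8% and 27.2%. DESeq2 called 1 of 9 for the trend and 4 of 9 for any difference, where it called 25.2% and 27.2% of all genes. Without the filter on low counts, edgeR called 0 of 9 for the trend and 5 of 9 for any difference. Of the 33715 genes tested then, it called 3029 and 2661. The nearest to a call were Kif15, with a slope of 0.23 ± 0.07 (SE) on the log2 scale per bin (adjusted p = 0.0599), and Kif20a for any difference (adjusted p = 0.0513). Kif15 crossed the threshold with DESeq2 (adjusted p = 0.0399), and in edgeR without bin 3 of plate 2 (adjusted p = 0.0366). Kif20a crossed it for any difference without bin 1 of plate 1 (adjusted p = 0.0163) or bin 1 of plate 2 (adjusted p = 0.0213). For any difference Kif20a also crossed it with DESeq2 (adjusted p = 0.0170) and in edgeR without the filter on low counts (adjusted p = 0.00158). The slope of Kif20a was 0.06 ± 0.08 (SE). With thinned cells the trend of Kif15 crossed the threshold in edgeR as well (adjusted p = 0.0427). The other slopes ran from 0.02 ± 0.08 (SE) for Kif23 to 0.19 ± 0.10 (SE) for Kif11, and the median of the 9 was 0.10, against 0.00051 over all genes. That median was -0.00282 without bin 1 of plate 1, 0.0536 without bin 3 and 0.0533 without bin 4 of plate 1, 0.22 without bin 1 of plate 2, 0.15 without bin 3 or bin 4 of plate 2 and 0.22 with thinned cells.

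The plates moved apart in this group. On plate 1 alone 9 of 9 slopes were above 0, with a median of 0.28, and on plate 2 alone 2 of 9 were, with a median of -0.07. The slope differed in sign between plates for 7 of 9 mitotic members, for 3 of 11 transport members, for 2 of 8 other motors and for 30.5% of all genes. In CPM, bin 4 was the highest on plate 1 for 9 of 9 mitotic and 2 of 11 transport members, Kif1c and Kif3b (38% of all genes). Bin 3 was the lowest on plate 2 for 9 of 9 mitotic and 2 of 11 transport members, Kif3b and Kif5b (24.6% of all genes). With CPM scaled by TMM, the trimmed mean scaling of edgeR, the first count was 9 of 9 and 0 of 11 (31%) and the second 9 of 9 and 2 of 11 (21.5%). Both patterns together held for 9 of 9 mitotic members, for Kif3b alone of the 11 transport members, for Kif14 and Kif18a of the 8 other motors and for 8.87% of all genes. These patterns were chosen for counting after the values were seen, and since the mitotic members share cells they do not count as independent.

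Summed over the 9 genes, mitotic kinesins stood at 71.6, 86.4, 81.6 and 149 CPM on plate 1 and at 155, 150.2, 68.4 and 155 CPM on plate 2. Summed transport kinesins stood at 461, 480, 465 and 482 CPM on plate 1 and at 497, 506, 488 and 495 CPM on plate 2. The mitotic sum was therefore 15.5% to 31.0% of the transport sum on plate 1 and 14.0% to 31.4% on plate 2, while the transport sum itself stayed between 461 and 506 CPM. G2/M genes of a common scoring list ran beside them at 1550, 1687, 1764 and 2391 CPM on plate 1 and 2294, 2440, 1654 and 2519 CPM on plate 2. Genes with a Kif symbol were left out of that list, while Cenpe stayed in it. S phase genes stood at 615, 651, 779 and 956 CPM on plate 1 and at 714, 864, 771 and 932 CPM on plate 2, without the fall of bin 3 below bin 1.

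Partners of the mitotic motors were read from a second list. Most of these partners, Aurkb and Nusap1 among them, are also in the G2/M list. Of the 12 partners tested, 3 rose by edgeR's test and 0 fell, against 6.78% higher and 8.64% lower of all genes. Prc1, which bundles the central spindle and binds Kif4, rose by 0.58 ± 0.10 (SE) per bin on the log2 scale (adjusted p = 0.00888). Nusap1, a spindle microtubule bundler, rose by 0.57 ± 0.11 (SE) (adjusted p = 0.0144), and Aurkb, the kinase of the chromosomal passenger complex, by 0.53 ± 0.12 (SE) (adjusted p = 0.0267). Their slopes were above 0 on each plate, 0.61 and 0.55 for Prc1, 0.60 and 0.55 for Nusap1 and 0.50 and 0.61 for Aurkb. Racgap1, the partner of Kif23 in centralspindlin, had a slope of 0.12 ± 0.05 (SE) and Cenpe and Kifc1, kinesins outside the symbol rule, had slopes of -0.02 ± 0.06 (SE) and 0.02 ± 0.12 (SE), with adjusted p of 0.143, 0.888 and 0.938. The median slope of the 12 partners was 0.09.

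The abundant transport kinesins were read over the same gates. Kif5b ran from 122 to 150.4 CPM over the 8 sums, Kif1c from 106 to 126 CPM and Kif1b, a kinesin-3 of vesicles and mitochondria, from 67.4 to 91.6 CPM. Of the kinesin-2 subunits, Kif3a ran from 44.6 to 55.0 CPM, its partner Kif3b from 21.2 to 28.2 CPM and Kif3c from 17.1 to 20.01 CPM. Kif16b, an early endosome motor, ran from 15.6 to 24.1 CPM and Kif13a, a motor of recycling endosomes, from 15.8 to 19.0 CPM. The neuronal kinesin-1 chains Kif5a and Kif5c stayed at or below 1.71 CPM.

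**Figure D2:**
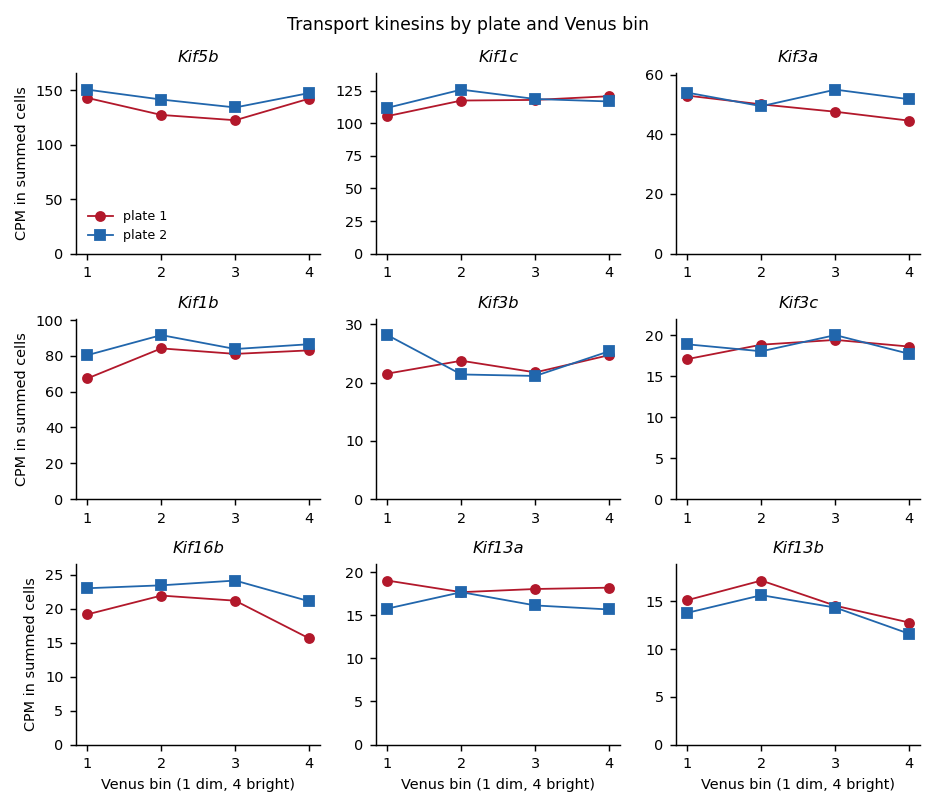
CPM of 9 transport kinesins whose mean log2 CPM was 3 or more (vertical axis, 1 panel per gene, from 0) in the 4 Venus bins (horizontal axis), 1 point per sum of cells, red circles for plate 1 and blue squares for plate 2. Kif5b stays between 122 and 150.4 CPM, and Kif3b is the 1 gene of these 9 with its highest value on plate 1 in bin 4 and its lowest on plate 2 in bin 3.

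By edgeR's test 2 of 11 transport members changed with a trend, 1 in each direction, against 6.78% higher and 8.64% lower of all genes, and the median slope of the 11 was -0.03. No member of the group had any difference called (0 of 11 by edgeR, against 8.37% of all genes). At an unadjusted p under 0.05 it was 6 of 11, against 27.2%, and by DESeq2 4 of 10, against 27.2% of the genes it tested. Kif13b, a kinesin-3 of vesicle traffic, measured 15.1, 17.2, 14.5 and 12.8 CPM on plate 1 and 13.8, 15.6, 14.3 and 11.6 CPM on plate 2. It was lowest in bin 4 on each plate and its slope was -0.11 ± 0.03 (SE) (adjusted p = 0.0494), a call that every one of the 8 fits without 1 sum lost (adjusted p = 0.0575 to 0.238). Kif5a measured 0.118, 0.438, 0.597 and 0.510 CPM on plate 1 and 0.0631, 0.301, 0.185 and 0.606 CPM on plate 2, from 227 counts in 10.2% of cells. It was lowest in bin 1 on each plate and its slope was 0.79 ± 0.18 (SE) (adjusted p = 0.0272). That call was lost in 5 of the 8 fits without 1 sum, those without bins 1, 2 or 4 of plate 1 (adjusted p = 0.118, 0.0539 and 0.0559) or bins 1 or 4 of plate 2 (adjusted p = 0.113 and 0.151). The slopes of the other transport members at or above 3 on the mean log2 CPM scale lay between -0.08 ± 0.03 (SE) for Kif16b and 0.03 ± 0.02 (SE) for Kif1b.

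Of 11 tested transport partners, 1 rose and 1 fell, close to the 6.78% and 8.64% of all genes. Klc1, a kinesin-1 light chain, rose by 0.13 ± 0.02 (SE) per bin on the log2 scale (adjusted p = 0.0130). Kifap3, the adaptor of the Kif3a and Kif3b dimer, had a slope of -0.09 ± 0.02 (SE) (adjusted p = 0.0322) and Kif3a itself one of -0.06 ± 0.03 (SE) (adjusted p = 0.195). The light chains Klc2 and Klc4 had slopes of -0.01 ± 0.03 (SE) and -0.05 ± 0.03 (SE), with adjusted p of 0.800 and 0.357.

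Among the other motors 3 of 8 tested members changed with a trend, 1 higher and 2 lower, against 6.78% and 8.64% of all genes. Kif21a measured 27.6, 35.4, 41.2 and 47.7 CPM on plate 1 and 42.0, 41.0, 49.0 and 51.7 CPM on plate 2. It climbed from bin to bin on plate 1 and was higher in bins 3 and 4 than in bins 1 and 2 on plate 2, and its slope was 0.17 ± 0.03 (SE) (adjusted p = 0.0172). The call was lost without bin 1 or bin 4 of plate 1 (adjusted p = 0.0724 and 0.128). Kif7, a kinesin of the cilium tip in Hedgehog signalling, measured 6.18, 7.03, 6.47 and 4.03 CPM on plate 1 and 8.00, 7.52, 5.95 and 5.39 CPM on plate 2. It was lowest in bin 4 on each plate and its slope was -0.22 ± 0.05 (SE) (adjusted p = 0.0317). Kif2a measured 52.1, 46.0, 51.3 and 46.7 CPM on plate 1 and 59.1, 52.2, 49.8 and 48.2 CPM on plate 2, and its slope was -0.08 ± 0.02 (SE) (adjusted p = 0.0482). It fell from bin to bin on plate 2 and went up and down on plate 1. Without 1 sum the call of Kif7 was lost in 6 of 8 fits, all but those without bin 3 of either plate, and that of Kif2a in 7 of 8, all but that without bin 3 of plate 1 (adjusted p = 0.0524 to 0.220 and 0.0737 to 0.213). Kif7 shares exon sequence with Ticrr, a replication gene, and Kif2a with Dimt1, each on the other strand. The same holds for Kif18a with Mettl15 and for Kif5b and Kif3c with antisense RNAs.

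**Figure D3:**
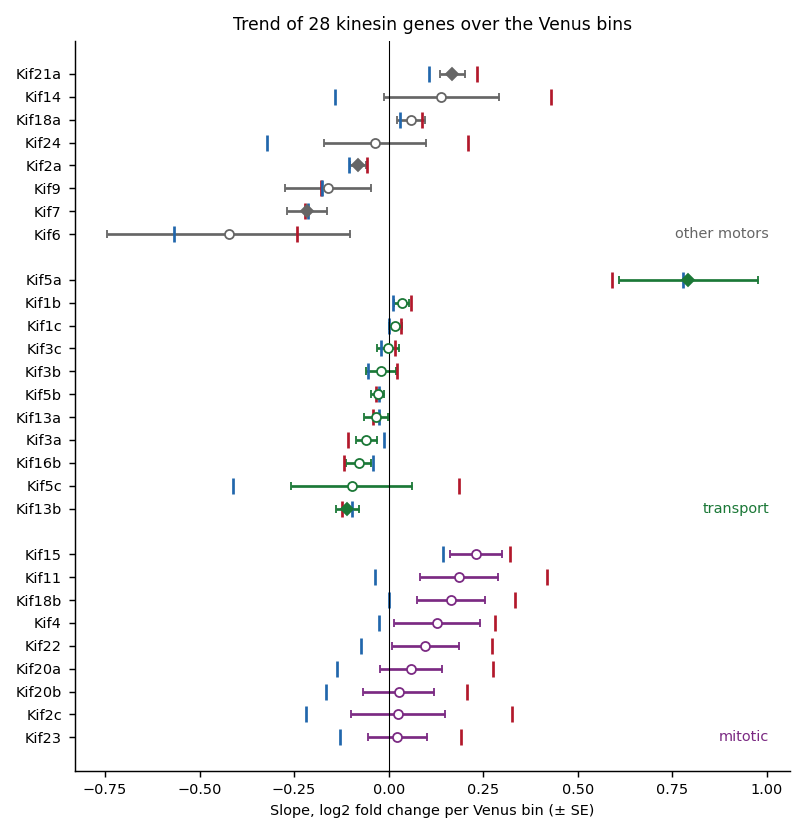
Slope over the Venus bins (horizontal axis, log2 fold change per bin) of the 28 tested kinesin motors (vertical axis), points with bars for the value from both plates ± SE, filled diamonds for an adjusted p under 0.05. Red ticks give plate 1 alone and blue ticks plate 2 alone, and for 7 of 9 mitotic members they lie on opposite sides of 0.

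Levels were also set side by side between the plates. A lower level on plate 1 was found for 8 of 9 mitotic and 8 of 11 transport members and for 64.4% of all genes. The mitotic sum was 96.6 CPM on plate 1 and 130.7 CPM on plate 2, a ratio of 0.739 (95% interval 0.729 to 0.750). This interval takes reads as independent and is too narrow, since most of these counts came from few cells. Also, copies made by PCR are not separate molecules where no molecular identifiers mark them. With 1 bin left out the ratio ran from 0.654 to 0.852. By bin the ratio was 0.461 in bin 1, 0.575 in bin 2, 1.19 in bin 3 and 0.962 in bin 4. Kif2c gave the lowest ratio, 0.558, followed by Kif20a at 0.632 and Kif4 at 0.654, while Kif20b gave 1.07. The transport sum gave 0.951 (95% interval 0.944 to 0.958, also with reads taken as independent), and its abundant members ran from 0.853 for Kif16b to 1.118 for Kif13a. On the log2 scale the median difference, plate 1 minus plate 2, was -0.50 over the 9 mitotic, -0.06 over the 11 transport members and -0.06 over all genes. A level at least 1.25-fold lower on plate 1, a size chosen after the values were seen, was found for 5 of 9 mitotic members, 0 of 11 transport members and 12.6% of all genes. With 1 sample per plate no test was made. The median share of mitochondrial counts per cell was 8.68% to 9.77% in the bins of plate 1 and 7.02% to 7.91% in those of plate 2, and its part in the ratio was not tested.

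Across single cells the mitotic motors were transcripts of a few cells. For these counts each cell was thinned to 697542 counts, which kept 341 cells on plate 1 and 344 on plate 2 and left out 77. The top 10% of cells held 91.5% of mitotic kinesin counts on plate 1 and 88.7% on plate 2, against 13.7% and 13.2% of transport kinesin counts. No mitotic kinesin count was found in 103 cells of plate 1 and 94 of plate 2, whereas every cell had transport kinesin counts. The most often seen mitotic member was Kif22, in 37.2% of cells on plate 1 (38.4% before thinning) and 42.4% on plate 2 (42.7%). The least often seen was Kif18b, in 11.7% and 12.2% (11.7% and 12.7%). Kif5b, Kif1c and Kif1b were found in 100% of cells on each plate and the 6 other transport members at or above 3 on that scale of mean log2 CPM in 83.4% to 99.7%.

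The number of mitotic kinesins per cell had 2 peaks. Most cells held counts for 0 to 2 of the 9 genes, few for 4 to 8, and 24 cells on plate 1 and 27 on plate 2 for all 9. Cells with 6 to 9, a range set on these data, numbered 34 on plate 1 (9.97%, exact 95% interval 7.004% to 13.7%) and 43 on plate 2 (12.5%, 9.196% to 16.5%). They held 91.2% and 91.8% of all mitotic kinesin counts, and near the lower limit of the range stood 2 cells with 5 and 2 with 6 on plate 1, and 4 with 5 and 8 with 6 on plate 2. Their median summed level was 616 CPM on plate 1 and 758 CPM on plate 2, against 8.60 and 7.17 CPM in cells with 1 or 2 of the genes. Median total counts were 855190 and 861804 in these cells and 855430 and 881840 in the cells with none. The median G2/M level in these cells was 6752 and 8325 CPM, against 973 and 1030.0 CPM in cells with none.

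The share of such cells was 5.13% in bin 1, 7.53% in bins 2 and 3 and 20.8% in bin 4 of plate 1, and 12.05%, 10.8%, 7.53% and 20% in bins 1 to 4 of plate 2. The exact 95% intervals of bins 1 and 4 on plate 1, 1.41% to 12.6% and 12.4% to 31.5%, overlapped slightly, and the intervals of every other pair of bins within a plate overlapped as well. These cells numbered only 4, 7, 7 and 16 in bins 1 to 4 of plate 1 and 10, 9, 7 and 17 on plate 2. Their median summed level was 638, 614, 651 and 451 CPM in bins 1 to 4 of plate 1 and 1009, 1133, 605 and 265 CPM on plate 2. In these few cells, bin 4 had the largest share and the lowest median level on each plate, while the other bins had fewer cells at a higher median. The spread within a bin was not computed. Between bins 3 of the plates, the shares were equal and the levels close. No test was made between cells.

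**Figure D4:**
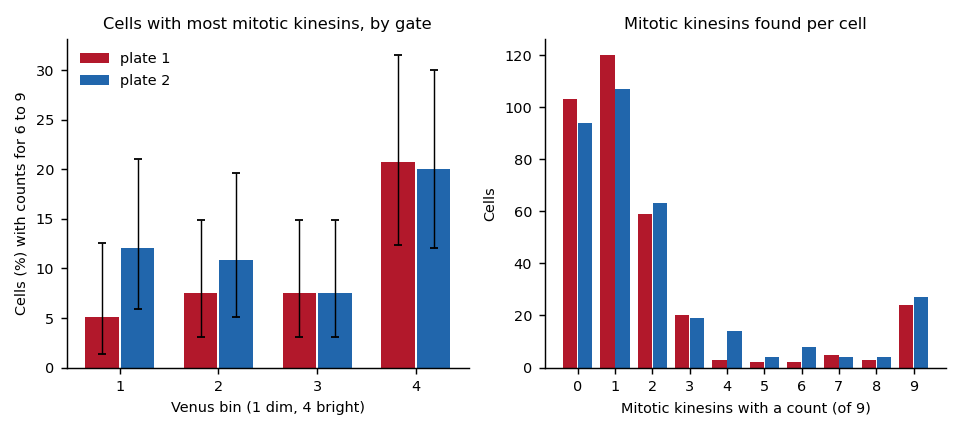
Left, share of thinned cells (%, from 0) with counts for 6 to 9 of the 9 mitotic kinesins in each Venus bin, with exact 95% intervals for counting error. Right, number of cells by how many of the 9 were found. Red is plate 1 and blue plate 2. Bin 4 has the tallest bar on each plate, 20.8% and 20%, and the counts on the right have a second peak at 9.

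Within cells with 6 to 9, the motors differed in how closely they followed the cell cycle lists. The rank correlation with the summed G2/M genes ran from 0.55 for Kif20a to 0.93 for Kif22 on plate 1 over 34 cells and from 0.73 for Kif20a to 0.93 for Kif23 on plate 2 over 43 cells. With the summed S phase genes Kif20a gave -0.26 and 0.13, the lowest of the 9 on each plate, as it was with the G2/M genes. Kif15 gave 0.67 with the S phase genes on plate 1, the highest there. On plate 2 it gave 0.59, and Kif11 was the highest at 0.62. With the G2/M genes Kif15 gave 0.60 and 0.74. The cells of a plate belong to 1 sample and were picked by these genes, so the values are a description.

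The 8 other motors, which did not pick the cells, were read in the same classes. Kif14, a cytokinesis motor, averaged 21.1 CPM on plate 1 and 27.8 CPM on plate 2 in cells with 6 to 9, against 0 and 0.0915 CPM in cells with none of the 9. Kif18a, which damps chromosome movement at kinetochores, averaged 36.6 and 39.7 CPM against 8.28 and 7.0003 CPM, a ratio of 4.42 and 5.68, and was higher in the first class in 8 of 8 gates. A gate held only 4 to 17 cells of that class. The share of all genes higher in 8 of 8 gates was not counted. Kif24, a centriolar kinesin, averaged 5.69 and 7.80 CPM against 1.00 and 1.54 CPM, and was also higher in 8 of 8 gates. These 3 were named after their values were seen, and a ratio of at least 4 on both plates, a size also chosen then, was found for 3 of the 8 and for 2.29% of all genes. The ratio was 1.13 and 1.27 for Kif2a, 1.12 and 1.09 for Kif21a, 0.773 and 0.775 for Kif7 and 0.386 and 0.445 for Kif9, and Kif6 had 0 counts in cells with 6 to 9. Kif2a, though its ratios were small, was higher in 8 of 8 gates too (1.03 to 1.38).

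Transport motors were not all level between these classes. Kif5b averaged 167 CPM on plate 1 and 182 CPM on plate 2 in cells with 6 to 9, against 125 and 139 CPM in cells with none, a ratio of 1.34 and 1.31, and was higher in 8 of 8 gates. Kif13b averaged 8.22 and 8.00 CPM against 17.5 and 14.3 CPM, a ratio of 0.471 and 0.559. Kif16b gave ratios of 0.539 and 0.607 and Kif3c of 0.632 and 0.473, and all of Kif13b, Kif16b and Kif3c were lower in 8 of 8 gates. With only 4 to 17 cells with 6 to 9 in a gate, these gate counts are a description. The shares of all genes higher or lower in 8 of 8 gates were not counted. By contrast the ratios of Kif1c were 1.02 and 0.987, and those of Kif13a 0.897 and 0.892. Over 9047 genes of at least this abundance the median ratio was 0.987 and 0.989, 12.2% had a ratio of at least 1.3 on both plates and 4.74% of at most 0.65, limits chosen after the values of these motors were seen. The median mitochondrial share was 7.53% and 6.66% in the cells with 6 to 9 and 9.33% and 8.10% in those with none, and its part in these ratios was not tested.

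Over all cells, the rank correlation of CPM had a median of 0.55 on plate 1 and 0.59 on plate 2 over the 36 pairs of mitotic members. It ran from 0.33 (Kif20a with Kif20b) to 0.70 (Kif2c with Kif4) on plate 1. The 55 pairs of tested transport members had medians of 0.00405 and 0.02, and no pair was above 0.16 on either plate. Among the 99 pairs across the groups, with medians of -0.02 and -0.05, Kif20a with Kif5b gave the highest value on each plate, 0.23 and 0.29. At equal depth the medians of the mitotic pairs were 0.56 and 0.56, and when cells were ranked within their Venus bin 0.54 and 0.58. All cells of a plate belong to 1 sample, and zeros make up most mitotic values.

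**Figure D5:**
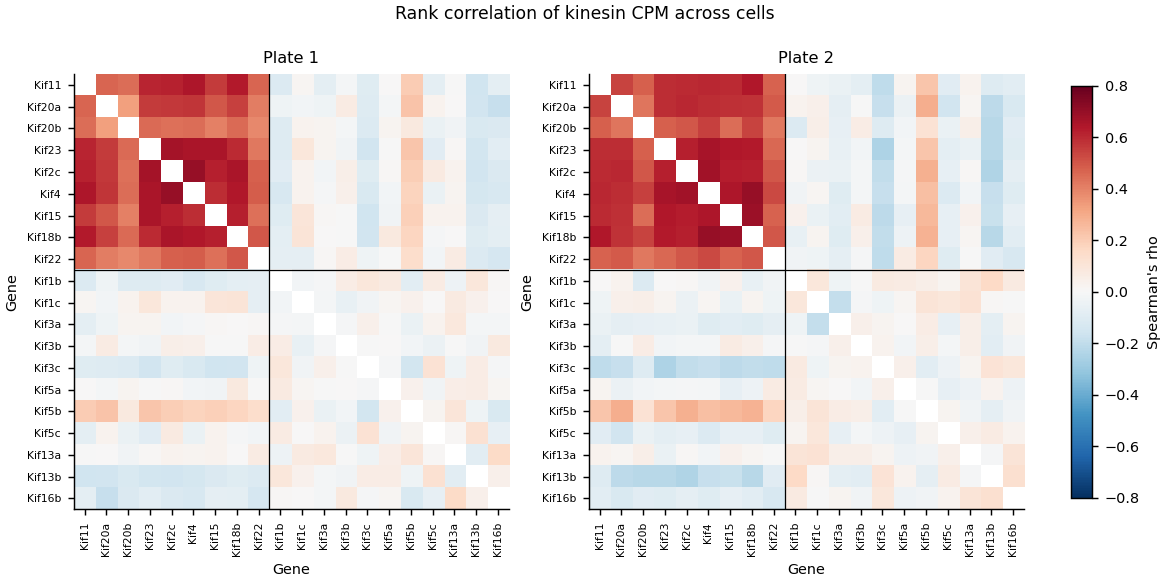
Spearman's rho across cells between the CPM of 9 mitotic (upper left block) and 11 tested transport kinesins (lower right block), plate 1 on the left and plate 2 on the right, genes on both axes, black lines between the groups. The mitotic block is red throughout, the transport block is pale, and the Kif5b row is the reddest of the transport genes against the mitotic ones.

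The 10 genes most like the summed mitotic kinesins across cells, by rank correlation averaged over the plates among 9034 genes with a mean of 3 or more on the log2 CPM scale, were Nuf2 (0.61), Bub1 (0.60), Hmmr (0.56), Troap (0.55), Bub1b (0.54), Ccnb1 (0.54), Pbk (0.53), Plk1 (0.53), Ccnb2 (0.52) and Cenpe (0.51). With the sort record, the mitotic sum had a rank correlation of 0.10 and 0.20 with Venus intensity, -0.01 and -0.05 with iRFP and 0.20 and 0.06 with forward scatter, a measure of cell size, on plates 1 and 2. Within Venus bins the values for Venus were 0.07 and 0.06. The transport sum gave 0.05 and -0.08 with Venus, -0.04 and 0.09 with iRFP and 0.03 and -0.06 with forward scatter. None of these weak correlations is given as a finding.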

How the data were processed

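Members and gene lists were chosen with earlier results of these data known. The authors deposited raw counts per gene and cell, whole numbers that are not normalized, and a sorting record of fluorescence and scatter intensity per cell in arbitrary units. The submitters' processing notes name STAR 2.7.11a, SAMtools, bedtools and HTSeq and the builds GRCm39 and mm39, without their roles or settings; strand use and molecular identifiers were not given in the sources used here. Symbols, exon lengths and overlaps were taken from GENCODE on GRCm38, which matched 24902 of 33757 features, so no coordinates from it are printed.

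Cells needed 1000 genes, 0.1 of their plate's median total and at most 25% mitochondrial counts. No doublet caller was run, since each well received 1 sorted cell. Counts summed per plate and Venus bin were scaled by TMM, filtered with filterByExpr and tested with edgeR 4.0.16 (quasi-likelihood, plate and bin as factors, Benjamini-Hochberg over all genes tested) in R 4.3.3; a slope is a log2 change per bin. The script was tested on simulated data. Alternatives were DESeq2 1.42.0, limma 3.58.1 on log2 of mean CPM plus 1, other scaling and filters, thinned cells and each sum left out. TPM used exon length in kilobases. Intervals are exact (95%). Plates were compared without a test.

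Named with values are all mitotic members, every other member called in either test, and transport members whose mean log2 CPM is 3 or more; Kif14, Kif18a, Kif24 and Kif5c were named after their values were seen. Kif1a had no matched row, and the partner Map7 was not analysed here. RefSeq promoter windows were searched over the 250 bases before the start; the wider searches were added later. Sequences from 1 chromosome and protein sequences are not reported here.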

Additional observations from a re-analysis of the deposited data

Results flagged for a closer look

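For 12 motors the slope over the bins was above 0 on 1 plate and below 0 on the other. They were 7 of 9 mitotic, 3 of 11 transport and 2 of 8 other motors tested, where 30.5% of all genes differed in sign. Since each plate is 1 sample the differences were not tested. Plate 1 minus plate 2, on the log2 scale per bin, the difference was 0.54 for Kif2c, 0.45 for Kif11, 0.41 for Kif20a, 0.37 for Kif20b, 0.35 for Kif22, 0.32 for Kif23 and 0.31 for Kif4, all above 0 on plate 1 and below 0 on plate 2. It was 0.0764 for Kif3b and 0.0369 for Kif3c, whose slopes lay near 0 on each plate. For 3 motors of low level it was 0.60 for Kif5c, 0.57 for Kif14 and 0.53 for Kif24, again above 0 on plate 1 and below 0 on plate 2. The medians of the groups also differed in sign, by 0.35 for the mitotic and 0.0403 for the transport kinesins.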

How the results depend on the processing

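Without the replicate block, that is without plate as a term, edgeR called 1683 of 18430 genes for the trend (2843 with it). Of the kinesin members it called 1 of 29 (5) and of the transport members 0 of 11 (2). For any difference it called 490 of 18430 genes (1542), and the slope of Kif2c turned to -0.0337. An additive linear model called 1858 of 18430 genes, 1 of 29 members and 0 of 11 transport members. Scaling by totals alone called 2727 of 18430 genes, 3 of 29 members and 1 of 11 transport members. With limma on mean CPM it was 3016, 3 and 1 of the same numbers tested. No filter left 1 of 12 transport members (3029 of 33715 genes), thinned cells 1 of 11 (2786 of 17268) and DESeq2 1 of 10 (3569 of 14142). Thinned cells and DESeq2 each added 1 call among the 9 mitotic members, Kif15. For any difference, no filter called 2661 of 33715 genes, 7 of 37 members, 5 of 9 mitotic and 1 of 12 transport. DESeq2 called 3653 of 13427 genes (27.2%), 11 of 27 members, 4 of 9 mitotic and 4 of 10 transport. Kif3c turned to 0.0141 with totals alone, 0.0052 with thinned cells and 0.0152 with limma, and Kif3b to 0.0018 with limma.

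Leaving out 1 sum gave a trend in 494 to 2457 of 19770 to 19910 genes and in 0 to 4 of 29 or 30 members. Among the mitotic members it was 0 to 1 of 9 and among the transport members 0 to 1 of 11. For any difference it was 214 to 1173 genes, 0 to 2 members and 0 to 1 mitotic, of the same numbers tested. With single plates included, slopes ran from -0.14 to 0.28 for Kif20a, -0.22 to 0.33 for Kif2c, -0.0727 to 0.27 for Kif22, -0.17 to 0.21 for Kif20b, -0.13 to 0.19 for Kif23, -0.0753 to 0.0428 for Kif3b and -0.0217 to 0.0177 for Kif3c, the median of the mitotic members from -0.0727 to 0.28 and that of the transport members from -0.0332 to 0.0158. The plate ratio of the mitotic sum was 0.717 from mean CPM over cells and 0.654 to 0.852 without 1 bin, that of the transport sum 0.944 to 0.958. The rank correlation of the mitotic sum with Venus, averaged over the plates, fell from 0.15 to 0.0658 within bins. The cause of these changes was not tested.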
